A study of Mus musculus with 24 samples.

Results

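The collagen genes of mouse embryonic fibroblasts (MEFs), an adherent cell type grown from the embryo, were followed in wild-type (WT) cells and in *tfeb tfe3* double-knockout (DKO) cells, each treated with vehicle, the MTOR inhibitor torin1 or the AMPK activator MK-8722. Members were all genes whose symbol reads Col, a number, a and a number, and 44 of the 55487 genes in the count table met that rule. Of these 44 genes, 28 had enough reads to be tested, among 15401 genes tested in all, and 16 did not. The vehicle was 0.1% DMSO, torin1 was used at 100 nM and MK-8722 at 10 µM, and each of the 6 groups held 4 libraries of messenger RNA. The treatment time of the sequenced cells was not given in the sources used here. Each genotype was represented by 1 cell line, so loss of TFEB and TFE3 cannot be told apart from other differences between the lines. WT libraries came from passages 7, 8, 9 and 11 and DKO libraries from passages 8, 9, 10 and 11, with each passage present once under every treatment. Nothing in the labels says that replicates were separate cultures beyond the passage, so p-values measure the spread between these libraries, which may in part be technical.

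Collagens are triple helices of 3 chains, and their chains fall into families by the structure they build. Type I, III and V chains form banded fibrils, type IV chains form the sheet-like network of basement membranes, type VI chains form beaded filaments around the cell, and smaller families sit on fibrils, span the membrane or form short networks. Fibroblasts are the main makers of fibrillar collagen in connective tissue, and the chains need hydroxylation and chaperones in the endoplasmic reticulum before they are secreted. TFEB and TFE3 are transcription factors best known for switching on lysosomal genes. MTOR complex 1 holds them in the cytoplasm, and active AMPK promotes their entry into the nucleus.

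The 24 libraries held between 24668921 and 33332562 estimated counts, and the collagen genes together took 0.304% to 0.787% of them. Levels of a gene are given as CPM, its counts scaled to the size of the library, and are compared between libraries and not between genes. *Tfeb* was at 22.9 ± 1.74 CPM (mean ± SD, n = 4) in WT and 2.25 ± 0.289 CPM in DKO cells with DMSO. *Tfe3* was at 120.2 ± 1.17 and 124 ± 2.11 CPM, but where the deletion lies in *Tfe3* was not given in the sources used here, so its level does not check the label. The summed level of 9 fibroblast markers was 4511 to 7468 CPM in WT and 4401 to 7880 CPM in DKO libraries, with *Thy1*, one of them, at 3.12 ± 0.540 CPM in WT with DMSO and without a count in any DKO library treated with DMSO or torin1. With DMSO, 5 of the 9 were called higher in DKO than in WT (*Pdgfra*, *Pdgfrb*, *Prrx1*, *S100a4* and *Twist1*) by the test given below and 2 lower (*Fn1* and *Thy1*). Of all tested genes, 23.5% were called higher and 24.6% lower. The part of these markers in the differences between genotypes was not tested. Summed markers of smooth muscle and myofibroblasts were at 268 to 637 CPM in WT and 872 to 1658 CPM in DKO libraries. Of the 5, *Acta2* and *Tagln* were called higher and *Cnn1* and *Des* lower in DKO under all 3 treatments, as were 16.2% and 17.9% of all tested genes. The group means of *Cnn1*, *Des* and *Myh11* were under 1 CPM in DKO, and that of *Myh11* in WT too. The part of this list was not tested either. The 6 endothelial markers summed to at most 2.11 CPM and the 5 osteoblast markers to at most 1.07 CPM in any library. Leukocyte markers summed to 2.05 to 14.6 CPM in WT and 4.48 to 11.98 CPM in DKO, skeletal muscle markers to 0.222 to 1.43 and 2.66 to 10.1 CPM, and Schwann cell and neural crest markers to 10.0 to 23.2 and 4.57 to 7.28 CPM. All but *Cd68*, 5 of the 6 leukocyte markers, had a mean under 1 CPM in both lines. So did all 5 skeletal muscle markers in WT and all but *Acta1*, 4 of the 5, in DKO. Of the 5 Schwann cell and neural crest markers, 3 were under 1 CPM in both lines. In bulk RNA, fewer cells of a type and less RNA per cell cannot be told apart. RNA integrity was 9.7 to 9.9 in every library other than DKO with MK-8722 replicate 3 (passage 10), where it was 7.9.

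Promoter sequences are shown for 4 genes on which the results below turn. *Col4a1* and *Col4a2*, which encode the main pair of type IV chains, lie head to head on chromosome 8 (GRCm38 annotation 11198423 to 11312826 on the minus strand and 11312805 to 11449287 on the plus strand), and the annotated genes overlap by 22 bases at their starts. Their promoter windows, from 250 bases before to 50 bases after the RefSeq start (GRCm38.p6, chr8:11312777-11313076 minus strand and chr8:11312555-11312854 plus strand), are printed 5′ to 3′, with the 78 bases that both windows hold in capitals.
*Col4a1*: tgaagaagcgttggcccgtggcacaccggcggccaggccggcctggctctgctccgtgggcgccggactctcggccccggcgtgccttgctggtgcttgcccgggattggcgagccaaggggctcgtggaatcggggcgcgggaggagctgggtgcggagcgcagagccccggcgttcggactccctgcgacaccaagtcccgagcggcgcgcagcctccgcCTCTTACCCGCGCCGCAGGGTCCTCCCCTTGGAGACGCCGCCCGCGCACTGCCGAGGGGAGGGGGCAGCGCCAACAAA
*Col4a2*: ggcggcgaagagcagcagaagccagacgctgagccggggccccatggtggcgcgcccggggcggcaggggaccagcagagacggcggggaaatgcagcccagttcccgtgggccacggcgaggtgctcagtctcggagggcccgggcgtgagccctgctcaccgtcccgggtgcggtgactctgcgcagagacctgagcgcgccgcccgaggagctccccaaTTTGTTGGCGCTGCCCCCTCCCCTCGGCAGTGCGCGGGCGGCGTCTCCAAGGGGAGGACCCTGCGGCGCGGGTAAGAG
The promoters of *Col5a3* (chr9:20815018-20815317, minus strand) and *Col8a1* (chr16:57754688-57754987, minus strand) are shown because these were the genes whose response to torin1 differed between genotypes. Here the capitals mark matches to CCAAT or GGGCGG on either strand, of which the *Col5a3* window holds 1 and 3 and the *Col8a1* window 0 and 4.
*Col5a3*: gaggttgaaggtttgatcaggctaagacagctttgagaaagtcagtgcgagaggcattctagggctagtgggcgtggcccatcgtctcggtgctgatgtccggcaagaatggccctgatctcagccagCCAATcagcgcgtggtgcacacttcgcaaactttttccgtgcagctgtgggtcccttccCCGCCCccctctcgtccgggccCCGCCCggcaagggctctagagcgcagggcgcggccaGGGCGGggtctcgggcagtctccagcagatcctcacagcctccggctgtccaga
*Col8a1*: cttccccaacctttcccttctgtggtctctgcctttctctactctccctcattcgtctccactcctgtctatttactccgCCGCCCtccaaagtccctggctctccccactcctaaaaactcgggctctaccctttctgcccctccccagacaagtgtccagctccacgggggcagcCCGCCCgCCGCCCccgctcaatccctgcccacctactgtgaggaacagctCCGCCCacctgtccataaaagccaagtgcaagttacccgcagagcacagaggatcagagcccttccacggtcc
RefSeq listed 38 promoter windows of this kind for 35 of the 44 collagen genes. CACGTG, the core of the motif bound by TFEB and TFE3, was read on both strands (it is its own reverse complement) and stood in 0 of these 38 windows, against 7.15% of 32851 windows of all genes. GGGCGG or its reverse complement CCGCCC stood in 60.5% of collagen windows against 35.7% of all windows, and CCAAT or ATTGG in 34.2% against 37.4%. TATAAA or TTTATA stood in 13.2% against 13.6%, and CATGTG or CACATG in 7.89% against 14.2%. These are counts of letters in a short window and say nothing of binding.

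Levels were compared between genes as TPM, the share of a library's transcripts after correction for transcript length. In WT cells with DMSO the type I chains led, with *Col1a1* at a mean of 640.3 TPM (lowest library 483, highest 903) and *Col1a2* at 292 TPM (215 to 446). *Col5a2*, a type V chain that co-assembles with type I fibrils, followed at 252 TPM (223 to 314), and its libraries overlapped those of *Col1a2*. *Col4a1*, *Col5a1* and *Col6a1* came next at 94.9, 83.4 and 81.9 TPM, with overlapping libraries between neighbours in this order. *Col5a3* was at 57.9 TPM, *Col16a1*, *Col18a1*, *Col4a2* and *Col8a1* at 42.6 to 36.3 TPM, and *Col3a1* at only 16.9 TPM (10.0 to 31.2). Below *Col12a1* at 9.29 TPM there was a gap to *Col11a1* at 1.66 TPM, and the libraries of these 2 genes did not overlap.

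In DKO cells with DMSO the order differed. *Col5a2* was first at 642 TPM (587 to 691) and overlapped *Col1a1* at 505 TPM (424 to 596), and *Col4a1* was the third at 322 TPM (292 to 334), apart from its neighbours. *Col1a2* at 168 TPM and *Col4a2* at 164 TPM overlapped each other. *Col5a3*, the seventh gene in WT, was at 1.62 TPM. Summed over all collagen genes the level was 1765 ± 398 TPM in WT and 2072 ± 171 TPM in DKO (SD, n = 4), and the libraries of the 2 genotypes overlapped. The type I chains made up 52.1% ± 4.26 of the collagen TPM in WT and 32.3% ± 2.47 in DKO, the type IV chains 8.87% ± 1.45 and 23.9% ± 2.04, and the type V chains 22.5% ± 1.501 and 37.2% ± 0.556. No library of one genotype reached the range of the other for any of these 3 shares. The TPM of *Col4a1* depends on how its reads were divided among transcripts, since its leading transcript took 52.0% to 58.6% of them, against 97.2% to 98.6% for *Col4a2*. The same limit holds for other genes, such as *Col16a1* (24.8% to 38.6%), *Col7a1* (38.8% to 51.5%) and *Col4a5* (45.1% to 56.8%).

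**Figure D1:**
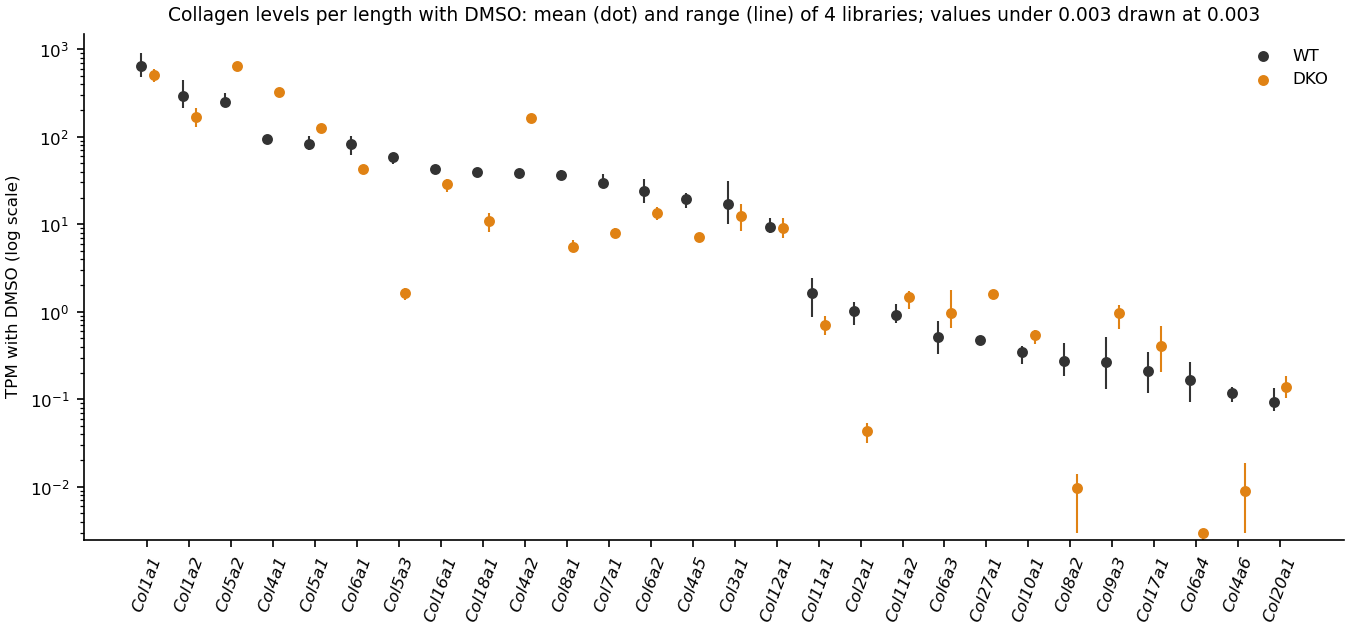
Level of each tested collagen gene with DMSO, in TPM on a log axis, for WT and DKO cells; the dot is the mean of 4 libraries, the line runs from the lowest to the highest library, and values under 0.003 are drawn at 0.003. *Col1a1* (640.3 TPM) led in WT and *Col5a2* (642 TPM) in DKO, and *Col5a3* was at 57.9 and 1.62 TPM.

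The comparison of DKO against WT cells with DMSO asked how the collagen genes differed between the lines before any drug. A gene was called when edgeR's quasi-likelihood test gave a Benjamini-Hochberg adjusted p under 0.05 over the 15401 genes and the fold change was at least 1.2. Of the 28 tested collagen genes, 9 were called higher and 14 lower in DKO, while 23.5% of all tested genes were called higher and 24.6% lower. The median log2 fold change was -0.51 over the collagen genes and -0.01 over all genes. Under torin1 the counts were 9 higher and 14 lower (24% and 27.8% of all genes) and under MK-8722 10 higher and 12 lower (23.3% and 25.4%). Higher under all 3 treatments were 8 genes, *Col4a1*, *Col4a2*, *Col5a1*, *Col5a2*, *Col27a1*, *Col9a3*, *Col10a1* and *Col17a1*, and 12 were lower under all 3, as were 16.2% and 17.9% of all tested genes. The 3 genotype comparisons use different libraries, but the same 2 cell lines.

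Among the basement membrane chains the network pair was higher in DKO and the remaining tested chains were lower. *Col4a2* was at 123, 149, 136 and 145 CPM in WT with DMSO (passages 7, 8, 9 and 11) and at 568, 608, 630.2 and 614 CPM in DKO (passages 8, 9, 10 and 11). *Col4a1* was at 195, 241, 225 and 234 CPM in WT and at 705, 789, 831 and 805 CPM in DKO. Every DKO library stood above every WT library for both genes, by a log2 fold change of 2.13 for *Col4a2* (SE 0.07, edgeR adjusted p = 1.33e-17) and 1.80 for *Col4a1* (SE 0.08, adjusted p = 1.15e-14). *Col4a5*, a chain of specialised basement membranes such as that of the kidney glomerulus, was lower in DKO (75.2 against 28.2 CPM, log2 -1.41). Its neighbour *Col4a6*, which starts 1308 bases away on the opposite strand of the X chromosome, was at 0.512 CPM in WT and had 3 counts in all DKO libraries with DMSO.

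Among the fibril-forming chains, 4 of 10 were called higher and 4 lower in DKO with DMSO. *Col5a3*, the third type V chain, was at 187, 218, 233 and 253 CPM in WT and at 7.34, 5.57, 5.41 and 6.96 CPM in DKO, which was the largest difference of a collagen gene with a mean of at least 1 CPM (35.2-fold lower, log2 -5.14, SE 0.18, adjusted p = 1.01e-16). The other type V chains were called in the opposite direction, with *Col5a2* at 995 ± 157 CPM in WT and 2555 ± 174 CPM in DKO (log2 1.36) and *Col5a1* at 311 ± 55.2 and 473 ± 38.8 CPM (log2 0.60). *Col27a1*, a fibrillar chain of cartilage, was at 1.92 ± 0.109 CPM in WT and 5.85 ± 0.440 CPM in DKO (log2 1.61). *Col2a1*, the main cartilage chain, was at 3.57, 3.70, 2.25 and 2.26 CPM in WT and at 0.171, 0.160, 0.115 and 0.103 CPM in DKO, where the 4 libraries held 14 counts together (log2 -4.39, SE 0.34, adjusted p = 1.6e-10). Under torin1 it was at 3.32, 2.97, 3.02 and 1.89 CPM in WT and had 5 counts in all 4 DKO libraries (log2 -5.81, SE 0.41, adjusted p = 2.25e-11). *Col11a1*, which forms fibrils with *Col2a1*, was also lower in DKO (5.31 against 2.56 CPM with DMSO). *Col11a2* went the other way, being called higher in DKO with DMSO (log2 0.57) and with MK-8722 (log2 0.60) and not called with torin1. The 6 chondrocyte markers, which do not include a collagen, summed to 10.2 to 35.1 CPM in WT and 5.62 to 15.8 CPM in DKO libraries. Of these, *Comp*, *Hapln1*, *Matn1* and *Matn3* had a mean under 1 CPM in both lines, and *Acan* in DKO too. The part of the chondrocyte markers in these values was not tested.

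The type I and III chains were closer between the lines. *Col1a1* with DMSO was at 1811, 1982, 2392 and 3343 CPM in WT and at 1875, 1606, 1971 and 2264 CPM in DKO. Libraries of the 2 genotypes overlapped, and the difference was not called (log2 -0.30). *Col1a2* was at 645, 705, 852 and 1330 CPM in WT and at 533, 409, 485 and 638 CPM in DKO, each DKO library lying under each WT library, and was called lower (log2 -0.77, SE 0.24, adjusted p = 0.00669). That call was lost when WT DMSO replicate 2 (passage 11) was left out (log2 -0.51). *Col3a1*, which shares fibrils with type I collagen, was at 16.8, 21.8, 25.9 and 55.6 CPM in WT and at 28.6, 20.3, 17.1 and 20.1 CPM in DKO, overlapped between the lines and was not called (log2 -0.49). With passage number as a block, *Col1a1* was called lower in DKO with DMSO (log2 -0.41, adjusted p = 0.000309) and *Col6a3* higher (log2 0.75, adjusted p = 0.0455), giving 10 genes higher and 15 lower (24% and 24.8% of all genes). That block gave both lines the same passage effect, although passage 7 held WT libraries alone and passage 10 DKO libraries alone. The last passage with DMSO stood at 1.27 times the first for *Col6a3* in WT (passages 7 to 11) and 0.320 in DKO (passages 8 to 11). For *Col1a1* these values, over the same unlike spans, were 1.85 and 1.21. From passage 8 to 11 alone, *Col1a1* went from 1982 to 3343 CPM in WT and from 1875 to 2264 CPM in DKO. Both added calls thus rest on an assumption that these levels do not meet.

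Apart from *Col10a1*, the beaded-filament, hexagonal network, multiplexin and anchoring chains were lower in DKO where they were called. *Col6a1* with DMSO was at 156, 201, 222 and 259 CPM in WT and at 118, 107, 113 and 105 CPM in DKO, so no DKO library reached a WT library (log2 -0.92, SE 0.13, adjusted p = 2.46e-06). *Col6a2*, the next chain of the type VI heterotrimer, was lower as well (64.5 against 37.1 CPM), whereas *Col6a3*, the third chain, was at 2.31 and 4.01 CPM and was not called. *Col6a4*, at 0.564 CPM in WT, had no count in any DKO library with DMSO and was at least 19.5-fold lower when set against a floor of 3 counts over the group. *Col8a1*, a chain of hexagonal networks such as Descemet's membrane of the eye, was at 109, 138, 120.4 and 117 CPM in WT and at 17.4, 17.1, 18.8 and 22.4 CPM in DKO (log2 -2.67, SE 0.13, adjusted p = 3.44e-14). *Col7a1*, which forms anchoring fibrils under epithelia, was 4.88-fold lower (81.6 against 16.7 CPM), and *Col18a1*, whose cleavage releases endostatin, was 3.19-fold lower (92.0 against 28.9 CPM). *Col16a1*, a fibril-associated chain, was 1.44-fold lower (106 against 73.4 CPM). *Col12a1*, which decorates type I fibrils, was at 51.4 and 49.4 CPM and was not called.

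Torin1, which blocks the catalytic site of MTOR, was compared with DMSO within each genotype. In WT cells 4 of the 28 collagen genes rose and 8 fell, where 26.6% of all tested genes rose and 20.5% fell. In DKO cells 5 rose and 7 fell, where 23% and 20.2% of all genes did. The median log2 change of the collagen genes was -0.09 in WT and -0.10 in DKO, and that of all genes 0.05 and 0.02. Of the genes that fell, 7 did so in both genotypes (of 8 in WT and 7 in DKO), namely *Col1a1*, *Col1a2*, *Col4a1*, *Col4a2*, *Col4a5*, *Col5a1* and *Col5a2*. Of those that rose, 3 did so in both (of 4 and 5), namely *Col17a1*, *Col20a1* and *Col27a1*. Of all tested genes 15.1% fell and 16.9% rose in both, and both comparisons are made within a genotype and share no library. By family, 5 fibril-forming and 3 type IV chains fell in WT and 4 and 3 in DKO, and none of the 4 tested type VI chains was called in either genotype.

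The genes of both type I chains fell with torin1 in both lines. *Col1a1* with torin1 was at 754, 895, 1113 and 1609 CPM in WT, in the same order of passages as above, each library lying under every WT DMSO library. In DKO it was at 824, 803, 902 and 1082 CPM, again under every DMSO library. The log2 change was -1.12 in WT (SE 0.21, adjusted p = 7.73e-05) and -1.10 in DKO (SE 0.21, adjusted p = 0.000113). Taken at the same passage, the torin1 library held 0.416 to 0.481 of the DMSO level in WT and 0.440 to 0.4999 in DKO, a narrower range than the levels themselves.

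*Col1a2*, the partner chain on another chromosome, was at 312, 347, 423 and 668 CPM in WT with torin1 and at 232, 205, 215 and 270.1 CPM in DKO. In DKO all torin1 libraries lay under all DMSO libraries, and in WT the passage 11 torin1 library (668 CPM) overlapped the DMSO range. The log2 changes were -1.01 in WT (SE 0.24, adjusted p = 0.000778) and -1.16 in DKO (SE 0.24, adjusted p = 0.000219), with same-passage ratios of 0.483 to 0.502 and 0.423 to 0.501. The ratio of *Col1a1* to *Col1a2* in TPM was 2.22 ± 0.137 with DMSO and 2.02 ± 0.0994 with torin1 in WT, and 3.04 ± 0.238 and 3.18 ± 0.245 in DKO. The summed TPM of the collagen genes with torin1 was 1144 ± 270.2 in WT and 1363 ± 59.9 in DKO, and the type I share was 40.4% ± 4.72 and 23.8% ± 2.25.

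*Col3a1* was at 11.1, 12.2, 17.5 and 37.0 CPM in WT with torin1 and at 19.8, 16.5, 14.3 and 13.6 CPM in DKO. The groups overlapped with DMSO in both genotypes, and *Col3a1* was not called (log2 -0.63, SE 0.40, adjusted p = 0.185 in WT and log2 -0.42, SE 0.41, adjusted p = 0.404 in DKO). At every passage, however, the torin1 library was under the DMSO library, at 0.561 to 0.677 of it in WT and 0.675 to 0.837 in DKO. With passage as a block the gene fell in both genotypes (log2 -0.64, SE 0.07, adjusted p = 3.31e-08 and log2 -0.42, SE 0.07, adjusted p = 2.44e-05).

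The type V chains were not of one direction. *Col5a1* went from 311 ± 55.2 to 151 ± 36.6 CPM in WT (log2 -1.04, adjusted p = 5.06e-07) and from 473 ± 38.8 to 304 ± 15.3 CPM in DKO (log2 -0.63, adjusted p = 0.000263). *Col5a2* went from 995 to 675 CPM in WT (log2 -0.56) and from 2555 to 1830 CPM in DKO (log2 -0.48). *Col5a3* fell in WT (log2 -0.55) and rose in DKO (log2 0.75), as given with the genotype differences below. *Col27a1* rose in both lines. It was at 1.91, 2.02, 1.77 and 1.99 CPM with DMSO in WT and at 4.48, 3.98, 4.70 and 6.89 CPM with torin1, and at 5.72, 5.29, 6.07 and 6.31 CPM with DMSO in DKO and 13.4, 11.6, 15.2 and 14.8 CPM with torin1. No torin1 library overlapped a DMSO library of its genotype, and the log2 changes were 1.38 (SE 0.16, adjusted p = 1.34e-07) and 1.23 (SE 0.14, adjusted p = 1.21e-07). *Col11a2* rose in WT only by the call (log2 0.46, adjusted p = 0.0102), and the difference between genotypes was not called.

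The type IV pair fell together. *Col4a1* with torin1 was at 122, 150.2, 142 and 158 CPM in WT and at 419, 489, 439 and 488 CPM in DKO, under every DMSO library of its genotype. *Col4a2* was at 91.6, 106, 97.8 and 105 CPM in WT and at 379, 425, 388 and 429 CPM in DKO, again without overlap. For *Col4a1* the log2 change was -0.65 in WT (SE 0.08, adjusted p = 2.75e-07) and -0.77 in DKO (SE 0.08, adjusted p = 1.92e-08), and for *Col4a2* it was -0.47 (SE 0.06, adjusted p = 1.07e-06) and -0.58 (SE 0.06, adjusted p = 4.6e-08). In the windows printed above these genes share their start region, and reads from the short overlap of the 2 genes, and from the antisense gene *Gm15418* that overlaps *Col4a1*, cannot be told apart without strand, which was not stated for the counting. *Col4a5* fell by 0.40 in WT and 0.37 in DKO on the log2 scale.

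The type VI chains, by contrast, gave no call with torin1. *Col6a1* was at 145, 179, 193 and 220.1 CPM in WT and at 108, 106, 104 and 86.3 CPM in DKO, overlapping with DMSO in both (log2 -0.18, SE 0.13, adjusted p = 0.239 and log2 -0.13, SE 0.13, adjusted p = 0.408). At each passage in WT it was at 0.8497 to 0.933 of the DMSO level. *Col12a1* was at 1.18 to 1.38 times the DMSO level of its passage in WT and 1.22 to 1.37 times in DKO, was not called as tested, and rose with passage as a block (log2 0.35 and 0.37, adjusted p = 5.25e-07 and 2.99e-07). Over the 28 genes, torin1 was above DMSO at all 4 passages for 8 in WT and 7 in DKO, and below for 14 and 11, where 38.2% and 35.2% of all genes were above and 32.5% and 32.6% below. With the passage block the counts with torin1 were 6 higher and 9 lower in WT (28.5% and 21.2% of all genes) and 6 and 9 in DKO (24.9% and 20.9%), among them *Col2a1*, lower in DKO (log2 -1.52, SE 0.58, adjusted p = 0.0362) on 14 counts with DMSO and 5 with torin1.

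Among the low genes, *Col17a1*, a membrane-spanning chain of epithelial hemidesmosomes, rose from 0.432 to 0.837 CPM in WT and from 0.868 to 1.65 CPM in DKO (log2 0.94 in both, adjusted p = 0.00099 and 0.000316). The 6 epithelial markers, which do not include *Col17a1*, summed to 2.83 to 7.49 CPM in WT and 2.99 to 14.6 CPM in DKO libraries. All but *Krt8*, 5 of the 6, had a mean under 1 CPM in both lines. Of the 4 tested, 3 rose with torin1 in WT and 2 in DKO, where 26.6% and 23% of all tested genes rose. The part of these markers in the rise of *Col17a1* was not tested. *Col20a1*, a fibril-associated chain, rose from 0.283 to 0.466 CPM in WT (log2 0.70, SE 0.29, adjusted p = 0.0385) and from 0.403 to 0.894 CPM in DKO (log2 1.16, SE 0.26, adjusted p = 0.000569). The WT call of *Col20a1* was lost on leaving out torin1 replicate 1 or 3, DMSO replicate 1, 3 or 4 or MK-8722 replicate 1 of the WT groups (log2 0.51 to 0.90).

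**Figure D2:**
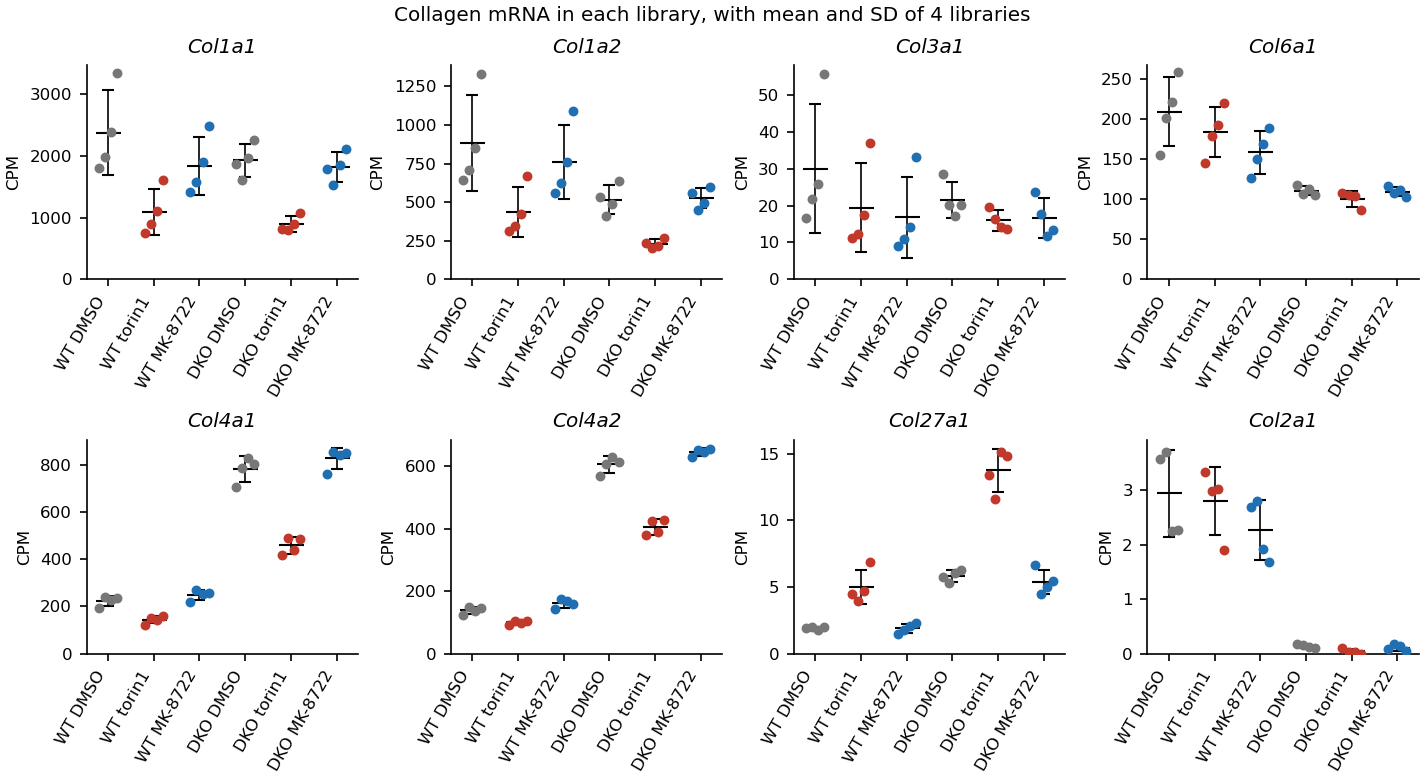
CPM of 8 collagen genes in each of the 24 libraries, by genotype and treatment; points are libraries in order of passage, with the mean and SD of 4 libraries beside them. All torin1 libraries of *Col4a1* lie under all DMSO libraries of their genotype (122 to 158 against 195 to 241 CPM in WT), while those of *Col27a1* lie above (3.98 to 6.89 against 1.77 to 2.02 CPM in WT).

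MK-8722, which activates AMPK directly, was compared with the same DMSO libraries. In WT cells 1 of the 28 collagen genes rose and 2 fell, where 10.3% of all genes rose and 5.87% fell. In DKO cells 2 rose and none fell, where 5.47% and 3.21% of all genes did; for the fall in DKO, edgeR gave 0 collagen genes at an unadjusted p under 0.05 and 0 by DESeq2. The median log2 change of the collagen genes was -0.07 in WT and 0.04 in DKO, and that of all genes -0.01 and 0. The gene that rose in both genotypes was *Col8a1*, and none fell in both, where 3.17% of all genes rose and 1.33% fell in both.

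*Col8a1* with MK-8722 was at 183, 209, 222 and 212 CPM in WT and at 29.8, 27.1, 32.5 and 38.0 CPM in DKO. Every MK-8722 library stood above every DMSO library of its genotype. The log2 change was 0.77 in WT (SE 0.12, adjusted p = 2.52e-05) and 0.75 in DKO (SE 0.13, adjusted p = 0.000211), and at the same passage the level was 1.51 to 1.85 and 1.58 to 1.73 times that with DMSO. *Col20a1* rose in DKO from 0.403 to 0.779 CPM (log2 0.96, SE 0.26, adjusted p = 0.0125).

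The 2 genes that fell in WT were *Col6a1* and *Col5a1*. *Col6a1* was at 126, 151, 169.8 and 189 CPM with MK-8722, overlapping the DMSO range of 156 to 259 CPM across passages but under the DMSO library at each passage (0.729 to 0.812 of it), with a log2 change of -0.40 (SE 0.13, adjusted p = 0.0240). In DKO it was at 116, 108, 111 and 103 CPM with a log2 change of -0.02 (SE 0.13, adjusted p = 0.961). *Col5a1* went from 311 to 240.4 CPM in WT (log2 -0.37, SE 0.13, adjusted p = 0.0344). At the same passage its MK-8722 library was at 0.746 to 0.789 of the DMSO level. In the fit without a passage block, either WT call depended on single libraries. The call of *Col6a1* was lost without MK-8722 replicate 1 or 4 or DMSO replicate 2 or 4 (log2 -0.52 to -0.28). That of *Col5a1* was lost without MK-8722 replicate 1, 3 or 4 or DMSO replicate 2 or 4 (log2 -0.48 to -0.25). With passage as a block, both genes stayed called.

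*Col1a1*, *Col1a2*, *Col4a1* and *Col4a2* were not called with MK-8722 in either genotype. *Col1a1* was at 1417, 1575, 1903 and 2483 CPM in WT and at 1791, 1537, 1856 and 2112 CPM in DKO. It overlapped DMSO in both lines (log2 -0.37, SE 0.21, adjusted p = 0.198 and log2 -0.08, SE 0.21, adjusted p = 0.840), although each WT library was at 0.743 to 0.796 and each DKO library at 0.933 to 0.957 of the DMSO library of its passage. *Col1a2* was at 561, 622, 758 and 1093 CPM in WT and 558, 451, 492 and 595 CPM in DKO. *Col4a1* was at 220.1, 269.6, 254 and 256 CPM in WT and 763, 854, 843 and 848 CPM in DKO, and *Col4a2* at 143, 176, 167 and 157 CPM and 628, 651, 646 and 654 CPM. Relative to DMSO at the same passage, *Col1a2* was at 0.822 to 0.889 in WT and 0.932 to 1.10 in DKO. The ratios were 1.09 to 1.13 and 1.01 to 1.08 for *Col4a1*, and 1.08 to 1.23 and 1.03 to 1.11 for *Col4a2*. *Col3a1* was at 8.99, 11.0, 14.2 and 33.1 CPM in WT and at 23.6, 17.9, 11.7 and 13.5 CPM in DKO. These libraries held 0.508 to 0.595 of the *Col3a1* level of the DMSO library of the same passage in WT and 0.671 to 0.881 in DKO.

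Replicates differed by passage, and more collagen genes were called for MK-8722 when passage was a block, the biological coefficient of variation over all genes being 10.7% without the block and 4.06% with it. In WT *Col3a1* fell (log2 -0.85, SE 0.07, adjusted p = 2.91e-09), as did *Col1a1* (log2 -0.36, SE 0.03, adjusted p = 3.98e-08) and *Col6a2* (log2 -0.39, SE 0.04, adjusted p = 1.91e-08), while *Col6a3* rose (log2 0.85, SE 0.14, adjusted p = 4.52e-05). In DKO *Col3a1* fell (log2 -0.38, adjusted p = 0.000282), and *Col6a3* (log2 0.72), *Col5a3* (log2 0.40) and *Col4a5* (log2 0.30) rose. The counts with the block were thus 2 higher and 5 lower in WT (11.6% and 7.29% of all genes) and 5 higher and 1 lower in DKO (7.49% and 4.24%). MK-8722 was above DMSO at all 4 passages for 7 collagen genes in WT and 9 in DKO (25.2% and 24.3% of all genes) and below for 13 and 4 (27.5% and 23.7%). Without the block, *Col6a3* had a log2 change of 0.85 in WT (adjusted p = 0.0733) and 0.72 in DKO (adjusted p = 0.136), from levels of 2.31 and 4.01 CPM with DMSO.

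**Figure D3:**
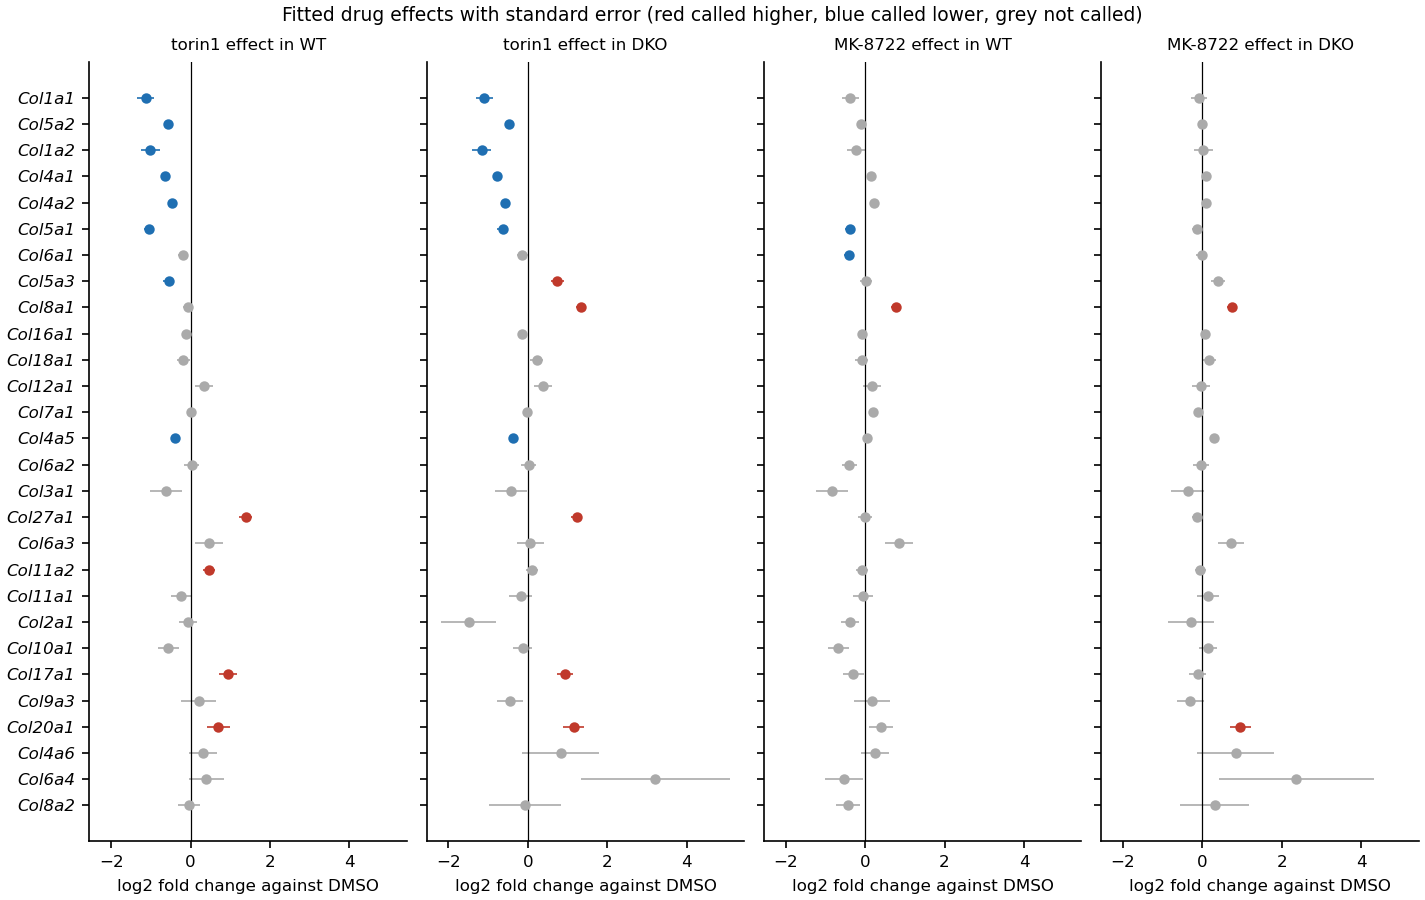
Log2 fold change against DMSO, with its SE, of the 28 tested collagen genes for torin1 and MK-8722 in WT and DKO cells; red marks genes called higher, blue genes called lower and grey genes not called. With torin1 the type I, IV and V chains lie to the left of 0, apart from *Col5a3* in DKO (0.75) and the uncalled *Col4a6*, and with MK-8722 *Col8a1* lies to the right in both genotypes (0.77 and 0.75).

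Torin1 was also set against MK-8722 directly. In WT 3 collagen genes were higher and 9 lower with torin1 (24.9% and 20% of all genes), and in DKO 3 and 7 (21.1% and 19.3%). With the passage block the counts were 5 higher and 10 lower in WT (26.6% and 20.5%) and 5 and 9 in DKO (22.3% and 20.2%). *Col1a1*, *Col1a2*, *Col4a1*, *Col4a2*, *Col4a5*, *Col5a1* and *Col5a2* were lower with torin1 in both genotypes, for example *Col4a1* by a log2 change of -0.80 in WT (SE 0.08, adjusted p = 1.27e-08) and -0.85 in DKO (SE 0.08, adjusted p = 5.17e-09). *Col17a1* and *Col27a1* were higher in both. *Col8a1* was lower with torin1 than with MK-8722 in WT (log2 -0.84, SE 0.12, adjusted p = 2.21e-06) and higher in DKO (log2 0.58, SE 0.12, adjusted p = 0.00032). The drugs differ in target, dose and chemistry, and each was used at 1 dose.

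Whether a drug acted differently in the 2 lines was tested by the difference of its effects. For torin1, 2 of the 28 collagen genes were called higher in DKO than in WT and none lower (4.68% and 6.33% of all genes); no collagen gene was lower at an unadjusted p under 0.05 in edgeR. For MK-8722 none was called in either direction (1.42% and 4.08% of all genes), with 1 higher and 1 lower at an unadjusted p under 0.05 in edgeR; DESeq2 gave 0 in these 3 counts as well.

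*Col8a1* with torin1 was at 128, 123, 96.7 and 113 CPM in WT, overlapping the DMSO libraries (log2 -0.07). In DKO it was at 59.6, 40.8, 42.1 and 47.4 CPM, above all DMSO libraries, and rose by 1.33 on the log2 scale (SE 0.13, adjusted p = 4.98e-09). The difference of the effects was 1.40 (SE 0.17, adjusted p = 4.50e-06), and at the same passage the torin1 library was at 0.803 to 1.18 times DMSO in WT and 2.12 to 3.43 times in DKO. Even so the DKO level with torin1 stayed under the WT level (log2 -1.28).

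*Col5a3* with torin1 was at 124, 137, 157 and 191 CPM in WT and at 12.5, 7.54, 10.5 and 11.8 CPM in DKO. The WT torin1 and DMSO libraries overlapped at 1 library, passage 11 with torin1, and the DKO libraries were all above those with DMSO. The log2 change was -0.55 in WT (SE 0.14, adjusted p = 0.00202) and 0.75 in DKO (SE 0.17, adjusted p = 0.00061), and their difference 1.29 (SE 0.22, adjusted p = 0.000269). The same-passage ratio was 0.631 to 0.757 in WT and 1.35 to 1.95 in DKO. With MK-8722 *Col5a3* was at 184, 214, 248 and 259.8 CPM in WT and at 9.21, 7.07, 7.87 and 9.06 CPM in DKO, and the difference of the effects was not called (log2 0.37).

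**Figure D4:**
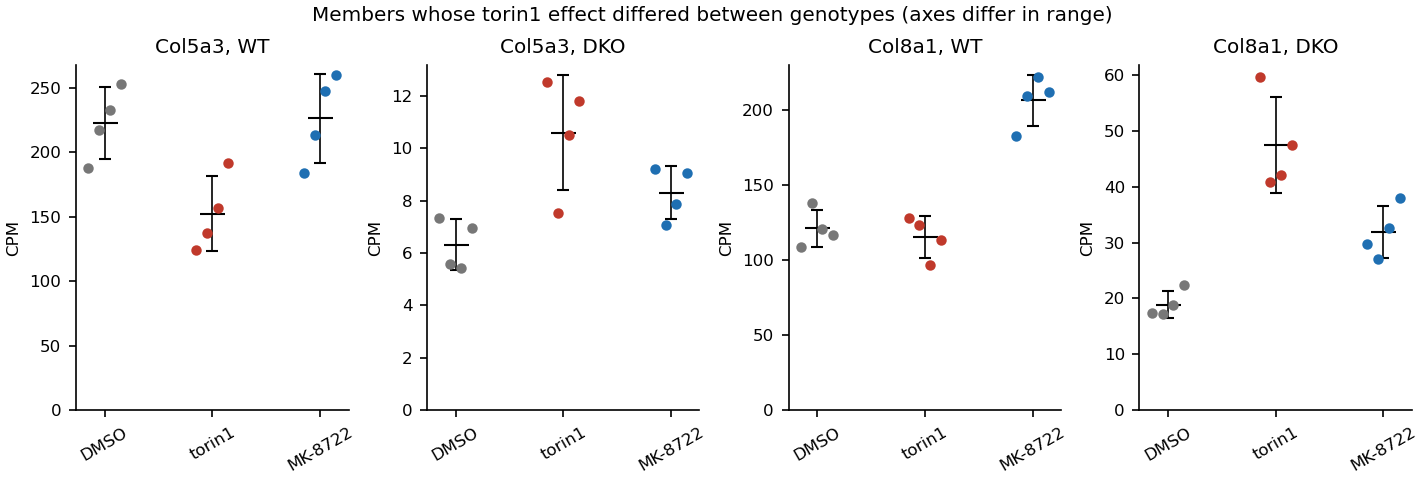
CPM of *Col5a3* and *Col8a1* in each library by genotype and treatment, with the mean and SD of 4 libraries. In WT, torin1 lowered *Col5a3* (223 to 152 CPM) and left *Col8a1* uncalled (121 and 115 CPM), whereas in DKO both rose (6.32 to 10.6 and 18.9 to 47.5 CPM).

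With passage as a block, the differences of the drug effects widened to further collagen genes. For torin1, *Col5a1* (log2 0.42, SE 0.05, adjusted p = 7.72e-07) and *Col18a1* (log2 0.40, SE 0.05, adjusted p = 7.74e-06) were added, giving 4 higher and none lower (6.74% and 8.63% of all genes). *Col18a1* at the same passage was at 0.861 to 0.905 of DMSO in WT and at 1.13 to 1.24 times DMSO in DKO. For MK-8722 6 were higher, namely *Col6a1*, *Col6a2*, *Col18a1*, *Col1a1*, *Col5a3* and *Col3a1*, and 1 was lower, *Col7a1* (3.16% and 5.88% of all genes). The largest of these was *Col3a1* (log2 0.47, adjusted p = 0.00189).

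From the first to the last passage, *Col3a1*, *Col6a1*, *Col6a2* and *Col12a1* rose in WT and fell in DKO under all 3 treatments. *Col1a1*, *Col1a2*, *Col5a1* and *Col5a2* rose in both lines, by less in DKO. In WT cells 9 of the 28 genes rose at every step of passage under all 3 treatments, as did 1.01% of all genes, and 0 fell at every step (0.383% of all genes). These were *Col1a1*, *Col1a2*, *Col3a1*, *Col5a1*, *Col5a2*, *Col5a3*, *Col6a1*, *Col6a2* and *Col16a1*. In DKO cells none rose at every step under all treatments (0.312% of all genes) and *Col12a1* fell (0.357% of all genes). Libraries of 1 passage may share a culture or a day, and the 3 treatments are then not independent, so these counts carry no test.

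*Col3a1*, a fibrillar chain, is an example of the opposite movement, although in DKO it did not fall at every step. Its level at passage 11 was 3.32, 3.32 and 3.68 times that at passage 7 in WT with DMSO, torin1 and MK-8722, and in DKO its level at passage 11 was 0.703, 0.686 and 0.570 of that at passage 8. *Col1a1* stood at 1.85, 2.13 and 1.75 in WT and at 1.21, 1.31 and 1.18 in DKO, *Col6a1* at 1.66, 1.52 and 1.49 and at 0.894, 0.798 and 0.885, and *Col12a1* at 1.48, 1.31 and 1.62 and at 0.509, 0.461 and 0.491. The spans are 4 passages in WT and 3 in DKO.

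**Figure D5:**
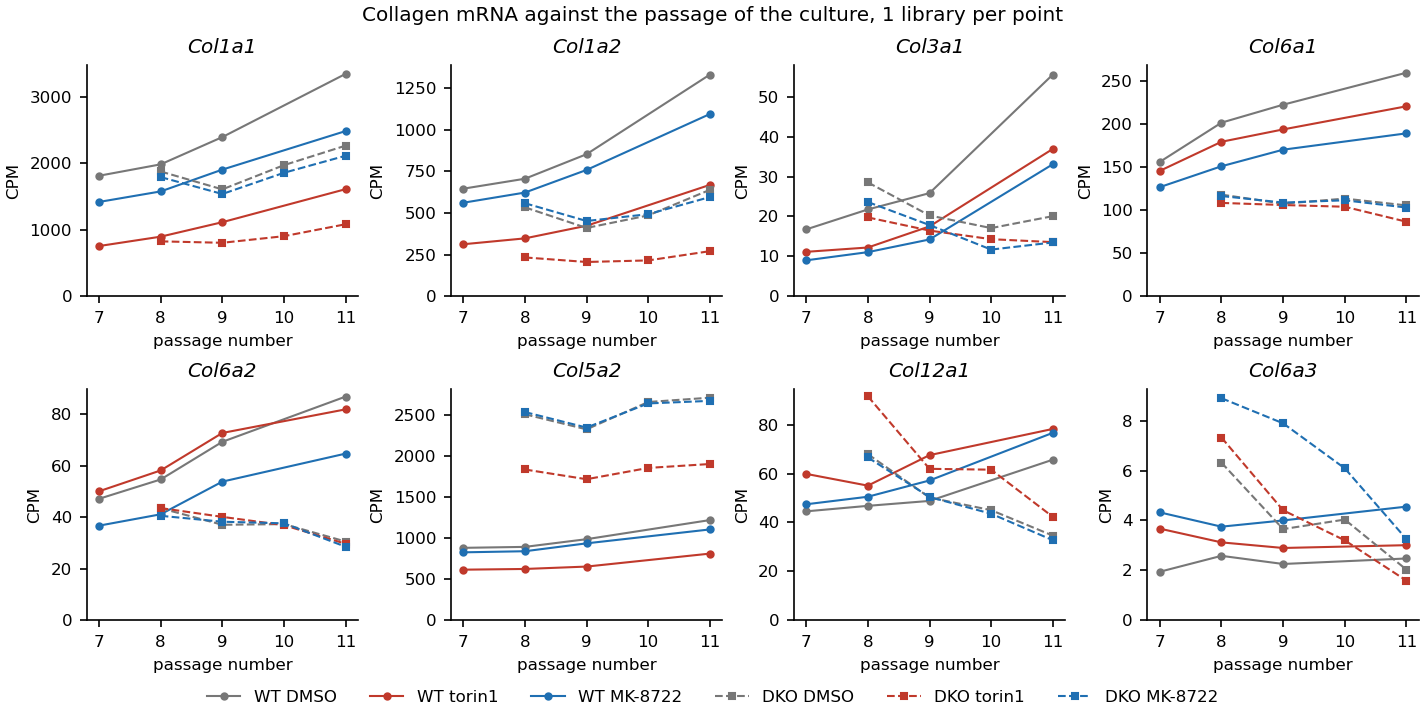
CPM against passage number for 8 collagen genes, with a line for each treatment in WT and DKO cells and 1 library at each point. *Col3a1* climbs from 16.8 to 55.6 CPM between passages 7 and 11 in WT with DMSO and goes from 28.6 to 20.1 CPM between passages 8 and 11 in DKO.

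The 16 collagen genes with too few counts for a test were *Col23a1*, *Col6a5*, *Col15a1*, *Col28a1*, *Col4a3*, *Col4a4*, *Col24a1*, *Col22a1*, *Col6a6*, *Col25a1*, *Col14a1*, *Col26a1*, *Col9a2*, *Col9a1*, *Col19a1* and *Col13a1*. Their totals over all 24 libraries ran from 1 count (*Col13a1*) to 66 counts (*Col23a1*), and the highest count in any library was 7. They include the kidney pair *Col4a3* and *Col4a4*, at 17 counts each, and the cartilage chains *Col9a1* and *Col9a2*, at 2 and 5 counts. No statement on a difference was possible for them at this depth. A further 7 genes passed the filter with a mean under 1 CPM, *Col10a1*, *Col17a1*, *Col9a3*, *Col20a1*, *Col4a6*, *Col6a4* and *Col8a2*. *Col10a1* lies within *Nt5dc1* on the opposite strand, and *Col9a3* overlaps *Tcfl5* at its end. Only reads from the stretch that 2 such genes share cannot be told apart without strand, and the same holds for *Col18a1* and *Slc19a1*. *Col10a1* was called higher in DKO with DMSO (0.700 against 1.12 CPM, log2 0.67, SE 0.24, adjusted p = 0.0210), a call lost without WT DMSO replicate 4 or DKO DMSO replicate 4 (log2 0.55 to 0.76).

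Genes that modify and export procollagen were read beside the chains. The counts of these lists stand beside the shares of all tested genes called higher and lower, which were 26.6% and 20.5% with torin1 in WT, 23% and 20.2% in DKO, 10.3% and 5.87% with MK-8722 in WT, and 5.47% and 3.21% in DKO. Of 10 genes of proline hydroxylation, torin1 lowered 6 and raised none in either genotype, and MK-8722 changed none. *P4ha1*, a catalytic subunit of prolyl 4-hydroxylase, went from 115 ± 20.1 to 62.5 ± 7.63 CPM with torin1 in WT (log2 -0.88) and from 106 ± 9.73 to 51.4 ± 3.16 CPM in DKO (log2 -1.04). *P4ha2*, its paralog, fell by 0.85 and 1.10 on the log2 scale. Of 13 genes of folding and export, 8 fell and 1 rose with torin1 in WT and 9 fell in DKO. *Serpinh1*, the collagen chaperone HSP47, went from 1009 ± 123 to 366 ± 35.8 CPM with torin1 in WT (log2 -1.46) and from 1396 ± 46.5 to 554 ± 10.1 CPM in DKO (log2 -1.33). *Creb3l1*, a membrane-bound transcription factor known to drive type I collagen genes, fell in both genotypes (log2 -1.42 in WT and -1.997 in DKO). With MK-8722 in WT *Serpinh1* and *Creb3l1* were the 2 genes of this list that fell (log2 -0.35 and -0.78), with 3 others rising, and in DKO 1 rose and none fell.

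The remaining lists were less uniform. Of the 4 tested genes of lysine hydroxylation and glycosylation only *Plod1* was called with torin1, lower in DKO (log2 -0.39). Of 6 procollagen processing genes, 2 fell with torin1 in WT, and 1 rose and 1 fell in DKO, with *Pcolce*, an enhancer of C-propeptide cleavage, lower in both (log2 -0.52 and -0.57). Among 9 fibril assembly partners, 5 rose and 1 fell in WT and 2 rose and 1 fell in DKO; *Dcn*, a small proteoglycan on fibrils, rose in WT (log2 2.15), *Fn1*, the fibronectin on which fibrils assemble and also 1 of the fibroblast markers, rose in both (log2 0.61 and 1.16), and *Sparc* fell in both (log2 -0.57 and -0.30). Among 9 receptors, *Itga2*, the alpha subunit of a collagen-binding integrin, rose by 2.13 and 2.74, and *Ddr2*, a receptor kinase for fibrillar collagen, fell by 0.46 and 0.54. *Smad3*, an effector of transforming growth factor beta signalling, the pathway best known for raising fibrillar collagen, rose by 0.28 and 1.08. With MK-8722 the counts were 0 called among the lysine genes, 1 lower in WT and 1 higher in DKO among the processing genes, 1 lower in WT among the fibril partners (*Sparc*), and 2 higher in WT and 1 higher in DKO among the receptors. Between the lines with DMSO, the genes called higher and lower in DKO were 4 and 2 of 10 in the proline list, 0 and 2 of 4 in the lysine list, 3 and 4 of 13 in folding and export, 2 and 3 of 6 in processing, 3 and 2 of 9 among the fibril partners and 2 and 5 of 9 among the receptors, where 23.5% and 24.6% of all genes were called. *Itga11*, a receptor for type I collagen, was lower in DKO (log2 -4.34), and *P4ha3*, a prolyl 4-hydroxylase subunit, was too (log2 -3.81).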

How the data were processed

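Messenger RNA of 24 MEF libraries was sequenced as 52-base pairs. The authors deposited estimated counts per gene, and estimated counts and TPM per transcript, from nf-core/rnaseq 3.11.2 under Nextflow 23.04.1 (STAR alignment, Salmon quantification, GRCm38, Ensembl release 102), with molecular identifiers considered and replicates kept apart; TPM was summed per gene here. Rounded counts were tested here with edgeR 4.0.16 (R 4.3.3, limma 3.58.1): filterByExpr with a minimum count of 10, TMM scaling, a quasi-likelihood fit of 6 group means (18 residual degrees of freedom) and 11 contrasts, with Benjamini-Hochberg adjustment over 15401 genes. The call threshold was 0.05 on the adjusted p together with a 1.2-fold change in either direction. CPM used TMM factors of 0.950 to 1.08. The study's methods name removal of a batch effect without saying which batch, and none was removed here in the test as planned; all libraries carry the same batch label.

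The members, gene families, pathway and marker lists were chosen with earlier results of these data known. Values in every library went to *Col1a1*, *Col1a2*, *Col3a1*, *Col4a1*, *Col4a2*, *Col6a1* and, in each contrast of drug, genotype or difference, to the called gene of largest rise and of largest fall among those with a mean of at least 1 CPM. Genes of the lists were named for the largest called changes, and *Plod1*, *Pcolce*, *Sparc*, *Fn1* and *P4ha3* after their values were seen. The counts of 1 pathway list are not reported here. Passage is a label of the libraries. Deviations from the group mean correlated above 0.1 in 22 of 24 pairs of the same passage and genotype (median 0.269), against a median of -0.064 between other passages, and passage was therefore also fitted as a block, within genotype for drug effects and by number across genotypes for genotype contrasts. No pair of replicates agreed within counting noise (chi-square per degree of freedom 3.80 to 39.2 over 36 pairs). Floors cover counting error only. Alternatives were DESeq2 1.42.0, its size factors, library size alone, no filter, the passage and replicate blocks, each library left out, and all libraries of WT passage 11 and DKO passage 8 left out. Promoter windows were read from RefSeq (GRCm38.p6) and gene positions from GENCODE mouse release 21. Scripts were tested on simulated data. Figures were drawn with Python 3.11.15, pandas 2.3.3, numpy 2.4.6 and matplotlib 3.10.9.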

Additional observations from a re-analysis of the deposited data

Results flagged for a closer look

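Across the 10 genes with values given in every library, the 6 groups gave 60 sets of 4 libraries, of which 1 had a library set apart from the other 3 by Dixon's criterion, where chance gives about 1 in 20. *Col4a1* in DKO cells with MK-8722 was at 763 CPM at passage 8, while the other libraries of the group were at 843 to 854 CPM. *Col4a1* at passage 8 was also the lowest of the DKO libraries with DMSO (705 CPM) and with torin1 (419 CPM).

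The response to torin1 differed between the lines for *Col5a3*, with a log2 difference of 1.29 (SE 0.22, edgeR adjusted p = 0.000269), and for *Col8a1*, with a log2 difference of 1.40 (SE 0.17, edgeR adjusted p = 4.50e-06). For *Col5a3* the torin1 library was below DMSO at 4 of 4 passages in WT and above it at 4 of 4 in DKO, and for *Col8a1* it was above DMSO at 4 of 4 passages in DKO. Leaving out any 1 library gave differences of 1.21 to 1.46 and 1.28 to 1.4995, all of them called. The part of the low DKO levels with DMSO in these differences was not tested.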

How the results depend on the processing

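The 22 counts of collagen genes called, and 121 calls of single genes, were recomputed under each alternative, and no direction reversed. With the replicate block, each count stayed within 1.5-fold (for example 4 higher and 8 lower with torin1 in WT). The replicate numbers follow passage only in part. They stand for the same passages in DKO with torin1 and with MK-8722, but mostly for different passages between the other groups. Of 24 pairs of the same number and genotype, 13 correlated above 0.1, and some of the 24 share a passage. The passage block lost no call and raised the counts to 2 higher and 5 lower for MK-8722 in WT, 5 and 1 for MK-8722 in DKO, 4 higher for the difference of the torin1 effects, 6 higher and 1 lower for that of MK-8722, and 5 higher for torin1 against MK-8722 in WT and 5 in DKO. DESeq2 called 2 genes higher with MK-8722 in WT, and without WT passage 11 and DKO passage 8 there were 5 higher for torin1 against MK-8722 in WT. Without 1 library, genes called ranged from 1 to 2 higher and 0 to 5 lower for MK-8722 in WT, the former reaching 2 without DKO torin1 replicate 2 or 4 or WT DMSO replicate 3, and the latter moving past 1.5-fold without any of the WT MK-8722 replicates 1 to 4 or WT DMSO replicate 2 or 4. For the difference of the MK-8722 effects they ranged from 0 to 1 lower (1 without WT DMSO replicate 3), and for torin1 against MK-8722 in WT from 3 to 5 higher (5 without WT MK-8722 replicate 2). The other counts moved by at most 1.5-fold, such as 3 to 4 higher and 8 to 9 lower for torin1 in WT and 8 to 10 higher and 13 to 14 lower for DKO against WT with DMSO. *Col20a1* with torin1 in WT was not called without the filter (log2 0.67, adjusted p = 0.131), by DESeq2 (0.70, adjusted p = 0.0994) or without WT passage 11 and DKO passage 8 (0.74, adjusted p = 0.078), and DESeq2 gave no adjusted p for *Col20a1* with MK-8722 in DKO. Scaling by library size alone put the median log2 change of all genes at -0.16 for DKO against WT with torin1, where it was -0.04, and kept all 121 calls. Except where the construction shows it, the cause was not tested. Depth limits the 16 untested genes and the 7 with a mean under 1 CPM, and the number of libraries and passages limits the rest.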
